A study of Mus musculus with 12 samples.

Results

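Guanylate-binding proteins and immunity-related GTPases were followed in antibody-secreting cells of mice through 10 genes: Gbp2, Gbp3, Gbp4, Gbp6, Gbp7, Igtp, Ifi47, Irgm1, Irgm2 and Serpina3f. They were taken by symbol from 32285 genes, because their levels by tissue and their uneven distribution over cells had already been seen in these libraries. Differences of these genes between tissues and the share of high cells are therefore descriptions of these libraries and carry no test. Cells were 9213 of the 39949 barcodes called as cells. A barcode was kept with at least 500 unique molecular identifiers (UMIs, counted RNA molecules) outside immunoglobulin genes and with at least 50% of its light-chain V gene UMIs in 1 gene, as a cell with 1 antibody light chain would have.

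Antibody-secreting cells are the plasmablasts and plasma cells that release immunoglobulin. Mice of both sexes, aged 3 months and on the C57BL/6 background, gave bone marrow, spleen and thymus for the sort. All mice carried the Prdm1-eYFP reporter, in which a fluorescent protein marks activity of Prdm1, a transcription factor of these cells. The gate was B220+/- CD138HI IgD- CD90.2- Prdm1-eYFP+, each sort pooled 3 mice, and each sex and tissue gave 1 gene expression library made with the 10x Genomics 5' chemistry. The groups compared are thus bone marrow, spleen and thymus with 2 libraries each, 1 per sex, and female and male with 3 libraries each, 1 per tissue. Whether the 3 tissues of one sex share their mice is not stated in the labels, and p-values measure the spread between these libraries, which may be technical.

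The guanylate-binding proteins (Gbp) and the immunity-related GTPases (the Irg family: Igtp, Ifi47, Irgm1 and Irgm2) are GTP-hydrolysing proteins that cells make after interferon, above all interferon-gamma. They gather on the membranes of vacuoles that hold intracellular microbes, which helps to break those vacuoles open. Irgm1, Irgm2 and Igtp carry a changed nucleotide-binding motif and hold the other Irg proteins in check on the cell's own membranes. Serpina3f encodes a serine protease inhibitor of the serpin family, whose gene is also switched on by interferon. Promoters of interferon-induced genes often hold GAS and ISRE elements, and the transcription factor IRF1 binds ISRE-like elements.

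The members lie in gene clusters of the GRCm38 assembly (GENCODE M21), the build named in the submitters' processing notes. Gbp7, Gbp3 and Gbp2 follow each other within 107.667 kb of chromosome 3 (142530342 to 142638008, plus strand). Gbp4 (105115767 to 105139586) and Gbp6 (105270702 to 105293698) lie on the minus strand of chromosome 5. On chromosome 11, Irgm1 spans 48861968 to 48871683 on the minus strand, Ifi47 spans 49076587 to 49096974, and Igtp starts at 58199556 on the plus strand. Serpina3f spans 104214544 to 104221129 on the plus strand of chromosome 12. The annotated spans of Igtp and Irgm2 overlap, as do those of Gbp4 and Gbp9, and Gbp6 and Gbp10 are close copies, so that the authors' counting may have divided molecules within these pairs.

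Promoter sequences of GRCm38.p6 (RefSeq) were found for 8 of the 10 members, and none is given for Gbp4 and Gbp6. The 250 bases before each start were searched on both strands for the ISRE pattern, GAAA then any 2 bases then GAAA, and the GAS pattern TTCNNNGAA, where N is any base. The ISRE pattern stood in 6 of the 8 members, against 2.98% of all 32851 promoters in the table, and the GAS pattern in 4 of 8, against 7.02%. Counted per gene, as for the members, the background was 3.46% and 8.13% of 27025 genes. Of 8 other immunity GTPases with a promoter in the table, 5 held the ISRE and 4 the GAS pattern. The windows with a match are shown because they carry the sequence features the members share. They are written 5' to 3' on the gene's strand, with the matched bases in capitals, ISRE matches on the opposite strand reading TTTC, 2 bases, TTTC.
Gbp7 (chr3:142530220-142530302, +): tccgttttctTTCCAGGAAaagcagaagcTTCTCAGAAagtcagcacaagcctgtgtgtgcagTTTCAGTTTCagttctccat
Gbp3 (chr3:142559989-142560024, +): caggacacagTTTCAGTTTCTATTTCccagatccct
Gbp2 (chr3:142620599-142620618, +): tttagTTTCACTTTCactgt
Irgm1 (chr11:48871430-48871455, -): ttcaaGAAATAGAAACCGAAActgat
Igtp (chr11:58199501-58199541, +): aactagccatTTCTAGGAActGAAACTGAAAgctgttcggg
Irgm2 (chr11:58214892-58214932, +): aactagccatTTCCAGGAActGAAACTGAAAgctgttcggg
Serpina3f (chr12:104214413-104214441, +): tcagttctatTTCCTAGAAatcacccatt

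Igtp and Irgm2 shared 40 of the 41 bases of these windows and differed by T14C, counted from 1 at the first base printed, within the GAS pattern. In both, the GAS pattern stood 2 bases before the ISRE pattern. Gbp3 and Irgm1 each held 2 overlapping ISRE matches, and Gbp7 held 2 GAS matches before its ISRE match. Serpina3f had a GAS match only, and Ifi47 had neither pattern in this window. A match describes these letters and does not show a bound site. The windows of Gbp2 and Irgm1 overlap the first exon in GENCODE, whose start lies upstream of the RefSeq one.

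Kept cells held a median of 2658 UMIs outside immunoglobulin genes for female and 3635 for male bone marrow, 4180 and 3250 for spleen and 1738 and 2167 for thymus. The number of kept cells was 1325 and 1769 in bone marrow, 3661 and 1970 for spleen and 133 and 355 for thymus, so that values from female thymus rest on few molecules. All 15 genes of a list for antibody-secreting cells, Jchain, Xbp1 and Prdm1 among them, were detected in every library, with 67454 to 113712 CPM in sum. CPM here is UMIs per 1000000 UMIs outside immunoglobulin genes. B cell markers summed to 1623 to 3451 CPM, T cell markers to 99.01 in female and 34.8 in male thymus and to 10.1 to 16.2 elsewhere, and macrophage and monocyte markers to 30.7 to 73.4. Neutrophil markers stood at 548 CPM in the female and 1357 in the male bone marrow library, at 0.140 in female spleen and at 0 in the other 3. Pairs of libraries shared from 1 to 13 kept barcodes. Kept barcodes that stood in the filtered list of another library were 33 of 133 in female and 64 of 355 in male thymus. In bone marrow they were 107 of 1325 and 132 of 1769, and in spleen 136 of 3661 and 98 of 1970. Doublets were not called, and the light-chain limit removes only some of them.

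Among the 5 Gbp members, Gbp6 had the largest fitted difference between thymus and bone marrow. Its level was 6.61 CPM for female and 5.34 for male bone marrow, 10.8 and 12.1 for spleen and 56.6 and 33.9 for thymus. Both thymus libraries lay above the other 4, although the female thymus value rests on 16 UMIs and the male one on 42. On the log2 scale the fitted difference was 2.56 (SE 0.35) between thymus and bone marrow, 1.61 (SE 0.32) between thymus and spleen, and 0.95 (SE 0.28) between spleen and bone marrow. Gbp6 was the 1 member of 10 past the threshold in thymus versus bone marrow, where 0.497% of the 11268 genes tested were called higher, and likewise in thymus versus spleen, with 0.453%. Since the members were chosen on these contrasts, nothing is read from these counts.

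Gbp6 was also high in thymus outside the kept cells. The free RNA profile, summed over barcodes outside the filtered lists, held Gbp6 at 25.9 CPM in female and 43.0 in male thymus, against 4.55 to 10.997 in bone marrow and spleen. Barcodes below the light-chain limit held it at 22.4 and 68.0 CPM in thymus and at 6.37 to 13.5 elsewhere. Both profiles had Gbp6 higher in each thymus library than in the other 4. Among kept cells it was found in 9.02% and 9.86% of those of female and male thymus and in 2.04% to 4.21% of those of the other libraries. The part of free RNA in the Gbp6 difference was not tested.

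Gbp3, Gbp4 and Gbp7 had smaller fitted differences than Gbp6 in all 3 tissue contrasts, and Gbp2 had larger ones in 2 of them. Gbp4, with Gbp6 on chromosome 5, was measured at 33.2 and 32.1 CPM in bone marrow (female, then male), 31.7 and 42.8 for spleen and 49.5 and 42.0 for thymus. The male thymus value lay below that of male spleen, so the tissues overlapped. Gbp7 had 16.0 and 20.1 CPM in bone marrow, 19.5 and 24.1 for spleen and 17.7 and 20.2 for thymus, and Gbp3 ranged from 11.1 to 15.6 CPM over the 6 libraries. Gbp2 had 4.35 and 4.91 CPM in bone marrow, 9.22 and 10.97 in spleen and 4.04 in male thymus. No Gbp2 UMI was found in the 282801 UMIs of female thymus, which allows a level of up to 10.6 CPM. The fitted spleen to bone marrow difference of Gbp2 was 1.14 (SE 0.32) on the log2 scale and its thymus to spleen difference -1.90 (SE 0.63), and both spleen libraries lay above both bone marrow libraries.

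Of the Irg genes, Igtp had the most UMIs of the 10 members in each of the 6 libraries, with 35.7 CPM for female and 44.2 for male bone marrow, 67.1 and 62.0 for spleen and 70.7 and 80.0 for thymus. Bone marrow lay below both other tissues, with fitted log2 differences from it of 0.69 (SE 0.31) for thymus and 0.72 (SE 0.27) for spleen. Irgm1, one of the restraining members, had 15.7 and 21.1 CPM in bone marrow, 19.2 and 16.8 for spleen and 28.3 and 40.4 for thymus. Irgm2, another of these, had 7.13 and 6.51 CPM in bone marrow, 6.51 and 10.3 for spleen and 14.1 and 19.4 for thymus. For both genes the thymus libraries were the highest, with log2 differences from bone marrow of 0.75 (SE 0.34) and 1.14 (SE 0.42). The female thymus values rest on 8 UMIs of Irgm1 and 4 of Irgm2. Their counting intervals, 12.2 to 55.7 and 3.85 to 36.2 CPM, include the bone marrow and spleen values of each gene.

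Ifi47 and Serpina3f did not order the tissues alike in females and males. Ifi47, an effector of the Irg family, was measured at 22.3 and 23.1 CPM in bone marrow (female, then male), 40.3 and 22.6 for spleen and 14.1 and 42.8 for thymus. The female order was spleen, bone marrow, thymus, and in males thymus lay above the other tissues. Serpina3f had 33.7 and 32.5 CPM in bone marrow, 26.2 and 46.4 for spleen and 7.07 and 33.9 for thymus, the female thymus value resting on 2 UMIs. In 3 libraries, both of bone marrow and male spleen, Serpina3f was among the 3 members with the most UMIs. Summed over the 10 members, levels were 188 and 201 CPM in bone marrow, 245 and 264 for spleen and 272 and 330 for thymus, while the free RNA profile held 119 and 149, 214 and 221, and 216 and 314. Fewer positive cells and less RNA per cell cannot be told apart in such sums.

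**Figure D1:**
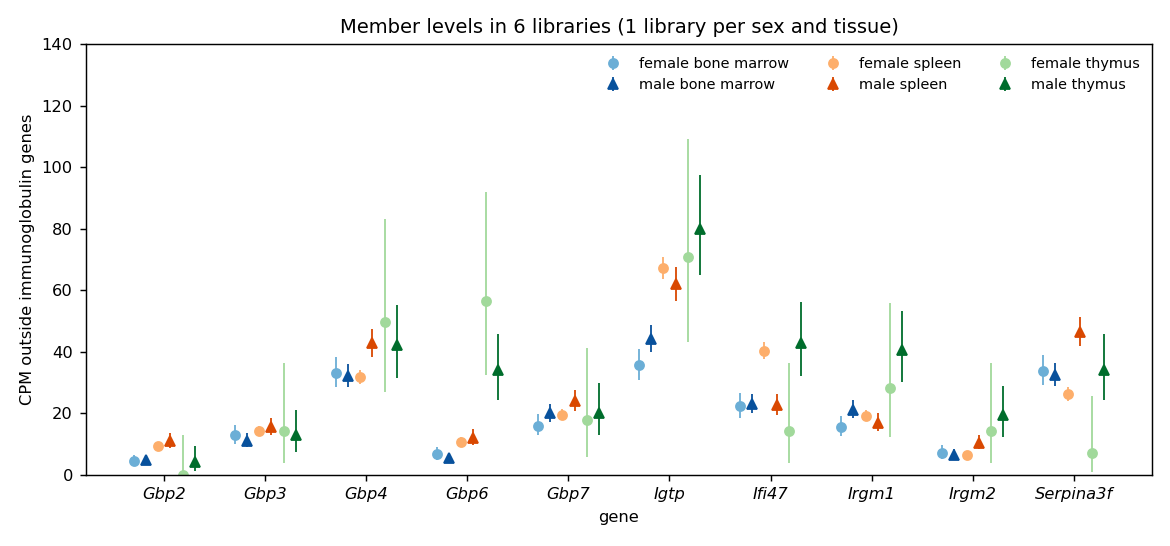
Level of each member in the 6 libraries, in CPM (linear axis), circles female and triangles male, with exact 95% Poisson intervals that cover counting error only. Gbp6 reaches 56.6 and 33.9 CPM in the thymus libraries and at most 12.1 in the others, while Gbp3 and Gbp7 differ little between libraries.

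No member passed the threshold between the sexes in edgeR's quasi-likelihood test with tissue as covariate, a contrast the choice of members did not use. Among all 11268 genes 0.39% were called, and 0 of the 10 members, with 0 by DESeq2 and 0 at an unadjusted edgeR p under 0.05. The fitted male to female difference ran from -0.38 (SE 0.25) on the log2 scale for Gbp6, with an adjusted p of 0.638, to 0.31 (SE 0.26) for Serpina3f, with an adjusted p of 0.724. The median over the members was -0.06, and over all genes tested 0.01. Irf1, an interferon-induced transcription factor, and Ifngr1 and Ifngr2, the receptor chains of interferon-gamma, lay between -0.06 and 0.08, with adjusted p of 0.929 to 0.979.

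Other interferon-induced genes were set beside the members from lists of known genes, which were chosen with earlier results of these data known. Their calls are given beside the share of all genes called and are not independent support for the members. The list names are labels, and which interferon acted was not tested. Of 20 tested genes of the type I interferon antiviral list, edgeR called 11 higher and 0 lower in thymus than in bone marrow, where 0.497% of all genes were called higher and 0.222% lower. The list had a median log2 difference of 2.24, against 0.32 over the 10 members and -0.02 over all genes tested. The largest were Oas1a, an RNA sensor enzyme, with 6.05 (SE 0.83, adjusted p = 8.56e-05), Rtp4 with 5.43 (SE 0.66, adjusted p = 2.28e-05) and Usp18, which removes ISG15 from proteins, with 4.79 (SE 0.45, adjusted p = 2.27e-07). Against spleen 8 of 20 were called higher. Of 22 tested interferon-gamma induced genes 3 were called higher in thymus than in bone marrow, Dtx3l, Parp9 and Parp14. Against spleen edgeR called 0 of these 22 (4 at an unadjusted p under 0.05, 0 by DESeq2), where 0.453% of all genes were called higher. Thymus libraries thus held Oas1a at 21.2 and 13.7 CPM, against 0 to 0.936 in the other 4. Kept cells of female and male thymus held 282801 and 1237205 UMIs in all, so these values rest on few molecules.

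Other measures moved with thymus. The antiviral list summed to 3640 and 2985 CPM in the free RNA profile of female and male thymus, against 604 to 1583 elsewhere, and to 3264 and 3750 CPM in kept cells, against 680 to 1630. Of 6 tested T cell markers 1 was called higher in thymus against both other tissues, Trbc2, a constant region of the T cell receptor, at 49.5 and 9.70 CPM on 14 and 12 UMIs against 0 to 0.499 CPM elsewhere. Trac, the other receptor chain's constant region, was at 0 in female thymus and at 1.62 CPM in male thymus. NK cell markers summed to 84.9 and 27.5 CPM in thymus, against 11.97 to 20.005 elsewhere. Their 2 tested genes, Gzma and Prf1, had a median log2 difference of 1.75 from bone marrow and 1.09 from spleen and were not called (1 at an unadjusted p under 0.05 in each contrast, 0 by DESeq2), while Ncr1 and Klrb1c were at 0 in both thymus libraries. Without cells holding at least 2 UMIs of other cell types' markers, 10 of 20 antiviral genes were called higher in thymus than in bone marrow and 8 of 20 against spleen. Gbp6 then differed by 2.46 from bone marrow and by 1.97 from spleen. The part of free RNA in these differences was not tested.

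Of 12 tested immunity GTPases outside the members, 3 were called higher in thymus than in bone marrow. These were Gbp10 (log2 difference 3.39, SE 0.66, adjusted p = 0.0073 by edgeR), Gm5431 with 2.45 and Gm4070 with 1.99. Gbp10, the close copy of Gbp6, stood at 14.1 and 11.3 CPM in thymus on 4 and 14 UMIs, against 0.854 to 2.62 CPM elsewhere. Against spleen Gm4070 (1.91) and Gvin1 (1.35), a very large inducible GTPase, were called. Among 17 tested genes of interferon reception and signalling, 3 were called higher in thymus than in bone marrow, Irf7 and Irf9 among them. Irf7, a transcription factor of the type I response, stood at 110 and 145 CPM in thymus, 31.9 and 20.3 in spleen and 20.4 and 16.4 in bone marrow. It was also called against spleen, with 2.11 (SE 0.32, adjusted p = 0.000916).

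Irf1 did not pass the threshold between any tissues. It was measured at 87.3 and 101 CPM in bone marrow (female, then male), 83.4 and 124 for spleen and 113 and 75.2 for thymus, and its libraries overlapped. Ifngr1 and Ifngr2 ranged from 13.7 to 22.8 and from 18.7 to 28.3 CPM, with adjusted p of 0.546 and 0.993 for thymus versus bone marrow. In spleen versus bone marrow edgeR called 0.39% of all genes and 0 in each of these 4 lists. At an unadjusted p under 0.05 were 7 of 20 antiviral genes, 1 of 17 signalling genes and 0 in the other 2 lists, and DESeq2 called 0 in all 4. The median difference there was 0.31 over the members, 0.53 over the antiviral list and 0.02 over all genes tested.

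These counts moved when single libraries were left out, where 5 libraries leave the model 1 residual degree of freedom. Without male bone marrow the antiviral list had 3 of 20 genes called in thymus versus bone marrow, without female bone marrow 5 of 21 and without male thymus 7 of 21. It had 13 of 19 without female spleen, 14 of 20 without male spleen and 13 of 21 without female thymus. The number called over all genes moved too, from 81 to 18 without male and 32 without female bone marrow, and to 351 and 309 without female and male spleen. Against spleen it had 4 of 21 called without male thymus, 6 without either bone marrow library, 8 without male spleen and 10 without female spleen or female thymus. The interferon-gamma list had 0 called in thymus versus bone marrow without either bone marrow library and 1 of 23 without male thymus. Against spleen the count of the interferon-gamma list moved from 0 when any 1 spleen or thymus library was left out. The number called over all genes moved as well, so nothing is read from this about the list. The other immunity GTPases had 0 to 5 called higher against bone marrow and 0 to 4 against spleen, and the signalling genes 0 to 4 and 0 to 1. Gbp10 lost its call in thymus versus bone marrow without male bone marrow (adjusted p = 1) or male thymus (0.0793), and Irf7 without male bone marrow (0.0501) and, against spleen, without male thymus (0.06). Gm5431 lost it without male bone marrow or male thymus, Gm4070, Dtx3l, Parp9, Parp14 and Irf9 without either bone marrow library among others, and Gvin1 against spleen without any 1 of 5 libraries. Gm4070 against spleen lost it without either bone marrow library or female thymus. Oas1a, Rtp4 and Usp18 passed in thymus versus bone marrow without each of the 6 libraries in turn. Oas3 lost its call there without either bone marrow library or male thymus, with log2 differences of 3.42 to 4.64. Against spleen Oas3 lost it without male spleen or male thymus, and Oasl2 without male thymus.

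**Figure D2:**
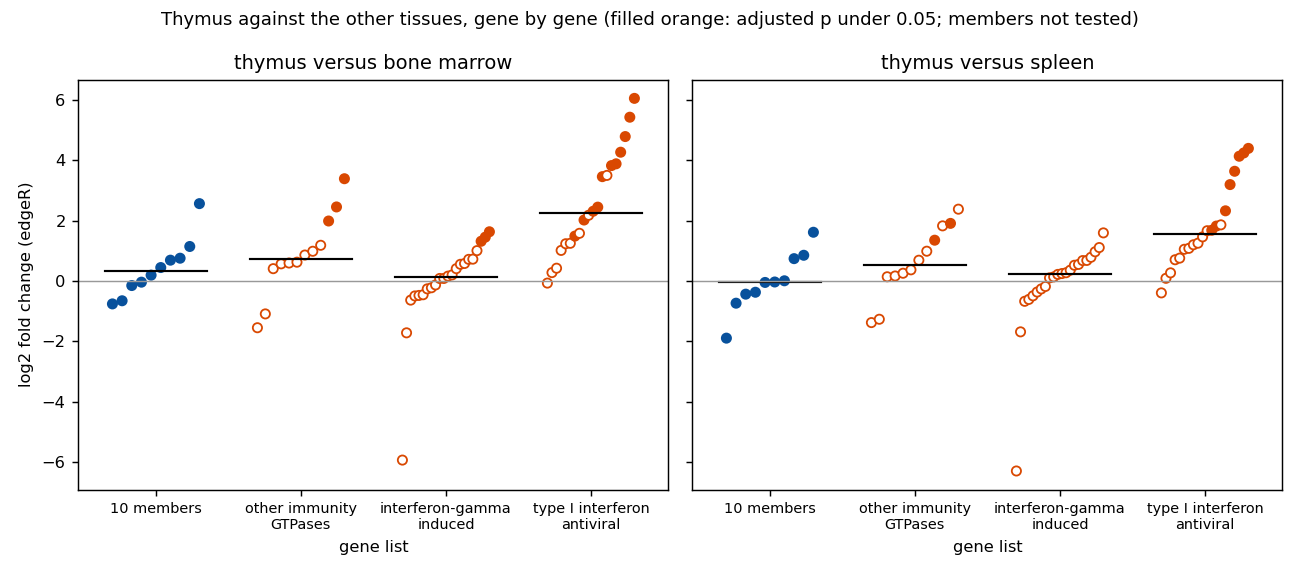
Log2 fold change of each tested gene by list, thymus against bone marrow on the left and against spleen on the right, bars marking list medians. Members (blue) are shown without a test, orange filled points passed the edgeR test, and the antiviral genes have a median of 2.24 against bone marrow where the members have 0.32.

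Members were spread unevenly over cells. A class of high cells was defined by at least 5 summed UMIs of the 10 members, and held 30 of 1325 cells of female bone marrow, or 2.26% (exact 95% binomial interval 1.53% to 3.22%). It held 45 cells or 2.54% in male bone marrow (1.86% to 3.39%), 193 cells or 5.27% in female spleen (4.57% to 6.05%) and 76 cells or 3.86% in male spleen (3.05% to 4.81%). In male thymus it held 20 cells or 5.63% (3.47% to 8.57%), and in female thymus 0 of 133 (0% to 2.74%). The female thymus interval includes both bone marrow shares, and its median depth of 1738 UMIs was the lowest. Both spleen libraries lay above both bone marrow libraries, and the observed shares of the thymus libraries fell on either side of them. Just inside the limit, at 5 UMIs, lay 6 and 9 cells in bone marrow (female, then male), 41 and 21 for spleen and 0 and 12 for thymus. Just outside, at 4 UMIs, lay 24 and 34, 122 and 28, and 2 and 6.

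The high cells held 21.2% of all member UMIs in female bone marrow, 30.3% in male bone marrow, 42.4% and 38.2% in female and male spleen and 33.6% in male thymus. The class was picked on these UMIs and its cells were deeper, so these shares follow in part from the rule and are descriptions. The members with the largest shares varied by library. In female spleen Serpina3f, Gbp2 and Ifi47 had 56.5%, 54.3% and 50.8% of their UMIs in the high cells, and Irgm2 and Gbp3 had 22.3% and 25.2%. Gbp2 and Serpina3f also led in male spleen (59.1% and 53.8%) and male bone marrow (45.7% and 46.7%). Of the Gbp2 UMIs in high cells, 46 of 107 in female spleen and 27 of 52 in male spleen came from 1 cell each. In female bone marrow Gbp6 led with 42.1% and Gbp2 had the least, 8%, on 25 UMIs in all. In male thymus Ifi47 led with 47.2%, and Gbp2 and Serpina3f had 20% and 21.4%. The remaining cells still held members, at 147 to 173 CPM in bone marrow and spleen and 272 and 257 CPM in female and male thymus. Gbp6 in these remaining cells was at 56.6 and 30.4 CPM in thymus and at 3.69 to 7.57 elsewhere.

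Depth differed between the classes. High cells had a median of 7862 UMIs in female bone marrow against 2620 in the other cells, 9244 against 3592 in male bone marrow, 8352 against 3981 and 4208 against 3213 in spleen, and 7813 against 2036 in male thymus. After each cell was thinned to 1000 UMIs, the share with at least 2 member UMIs was 3.23% and 2.40% in bone marrow (female, then male), 4.4% and 4.11% for spleen and 3.74% and 5.90% for thymus. Thinning left out 26 to 120 shallower cells per library. Barcodes below the light-chain limit gave 2.20%, 2.22%, 3.48%, 3.47%, 5.65% and 10.3% in the same order, so these thinned shares are not read as shares of expressing cells. Cells with at least 5 member UMIs that also made up at least 1000 CPM were 1.21% and 1.41% of kept cells in bone marrow, 2.73% and 2.94% for spleen and 0% and 3.38% for thymus. Under the same rule the barcodes below the light-chain limit gave 0.106% to 0.779%, at a lower median depth of 784 to 1397 UMIs.

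**Figure D3:**
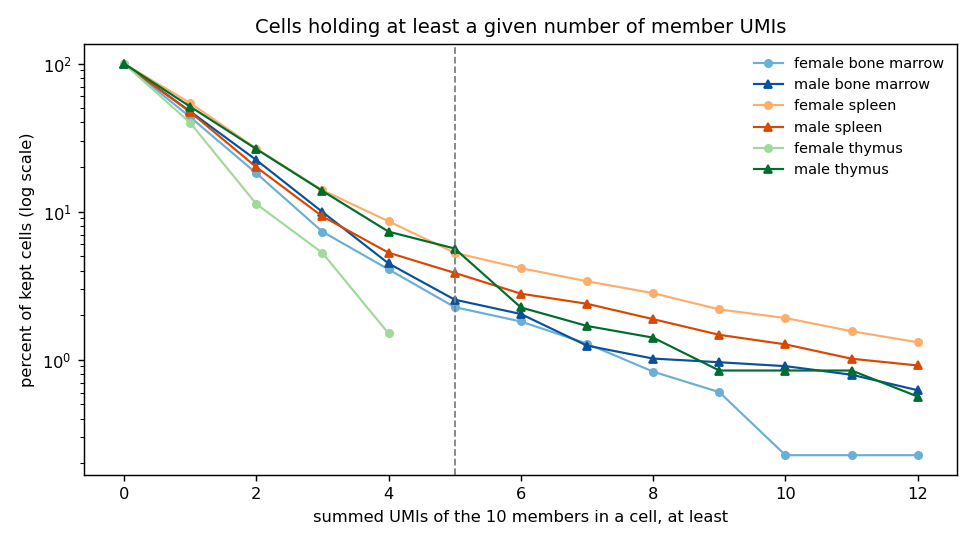
Percent of kept cells (log axis) that hold at least the number of member UMIs on the horizontal axis, one line per library, with the limit of 5 dashed. Female spleen has the longest tail, with 48 cells at 12 UMIs or more, and the female thymus line ends at 4.

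At the far end, 48 cells of female spleen, 18 of male spleen, 11 of male and 3 of female bone marrow and 2 of male thymus held 12 or more member UMIs. The highest cell of female spleen held 103 member UMIs among 9845, of which 46 were Gbp2 and 30 Igtp, with 7 of the 10 members present. The highest cell of male bone marrow held 94 among 14094, with 9 members present, led by Irgm1 with 26 and Serpina3f with 18, and with 27 UMIs of Tgtp2. In male spleen the highest cell held 52, of which 27 were Gbp2. In male thymus it held 17, of which 14 were Igtp. These 4 cells held 523 to 2038 UMIs of Jchain, the joining chain of secreted IgM and IgA. They held 2, 8, 2 and 1 UMIs of other cell types' markers in the order given. The highest cell of female bone marrow, with 19 member UMIs, held 36 UMIs of Jchain and 1 of other cell types' markers.

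High cells were chosen on the summed UMIs of these genes, so the families found together in them are a description without a baseline. At least 1 Gbp and 1 Irg member were found together in 73.3% of the high cells of bone marrow in both sexes, in 71.5% and 64.5% of those of female and male spleen and in 70% of those of male thymus. A UMI of Serpina3f was found in 35% to 60% of high cells, and Gbp, Irg and Serpina3f together in 21.1% to 43.3%. The median high cell had 3 to 4 of the 10 members. Igtp was the most frequent member in high cells of every library, found in 65.8% to 80.0%, and Gbp2 was among the rarest, in 5% to 17.1%. In 25% of the high cells of male thymus, and in 50% to 64.5% of those of the other 4 libraries, a single member supplied at least 50% of the member UMIs. Serpina3f was the leading member in 33.3% and 26.7% of the high cells of bone marrow (female, then male) and in 34.2% of those of male spleen, and Igtp in 36.8% of those of female spleen and 30% of those of male thymus.

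High cells were then compared with the other cells of the same library for genes outside the members, with library as a block in edgeR, over the 5 libraries that had high cells. Of 16 tested genes of interferon reception and signalling, 7 were called higher and 1 lower, where 13.2% of all genes were called higher and 8.77% lower. The list had a median log2 difference of 0.14, against -0.04 over all genes. Irf1 was measured at 106 CPM in high against 86.5 in other cells of female bone marrow, 299 against 91.4 in male bone marrow, 137 against 78.2 in female spleen, 287 against 113 in male spleen and 103 against 70.3 in male thymus. It was higher in 5 of 5 libraries, with a log2 difference of 1.196 (SE 0.14, adjusted p = 1.64e-06). Irf7 differed by 1.46 (SE 0.16, adjusted p = 1.13e-06) and Socs1, the feedback inhibitor of JAK kinases, by 2.61 (SE 0.25, adjusted p = 1.56e-07), each higher in 5 of 5 libraries. Socs1 was found in 4 of 30 and 4 of 45 high cells of female and male bone marrow. In spleen it was found in 30 of 193 and 12 of 76, with up to 19 UMIs in a single male cell, and in male thymus in 2 of 20.

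The number of genes called differed between rules for the high class. With at least 5 UMIs as the rule, 1871 of 8510 genes were called in either direction. Where classes were drawn after thinning every cell to 1000 UMIs, 0.447% of 7832 genes were called higher and 0.0511% lower. Among cells with 2000 to 6000 UMIs, in the 4 libraries with at least 10 high cells, 0.342% of 8185 genes were called higher. With at least 5 UMIs and at least 1000 CPM, 0.892% of 7622 genes were. The later 3 rules are called depth-matched here, although the last one limits depth only in part. Each rule also changed which and how many cells were high, and the depth window kept 10 to 54 high cells per library. A stricter light-chain limit, with at least 90% of light-chain V gene UMIs in 1 gene, left 10 to 39 high cells per library and 0.366% of 4372 genes called higher.

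Irf1, Irf7 and Socs1 were called under all 3 depth-matched rules, where 0.342% to 0.892% of all genes were called higher. After thinning the log2 differences were 1.37 for Irf1, 1.13 for Irf7 and 2.21 for Socs1, and among cells of 2000 to 6000 UMIs they were 1.67, 2.01 and 3.68. Of the 16 signalling genes, 6 were called higher after thinning, 6 in the depth window, 7 by the rule with 1000 CPM and 3 of 11 with the 90% light-chain limit, Irf1 and Irf7 among them (adjusted p = 0.034 each). The 1 called lower by the rule of 5 UMIs was Tyk2, a kinase of the type I receptor, with -0.57 (adjusted p = 0.0139). It lies outside the rule for named genes and was chosen after its value was seen. The receptor chains of interferon-gamma were not among those called. Ifngr1 stood at 4.26 to 20.7 CPM in high and 14.2 to 23.0 in other cells, a log2 difference of -0.37 (SE 0.24, adjusted p = 0.287), lower in 5 of 5 libraries, and -0.0037 after thinning. Ifngr2 differed by -0.02 (SE 0.20, adjusted p = 0.965).

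**Figure D4:**
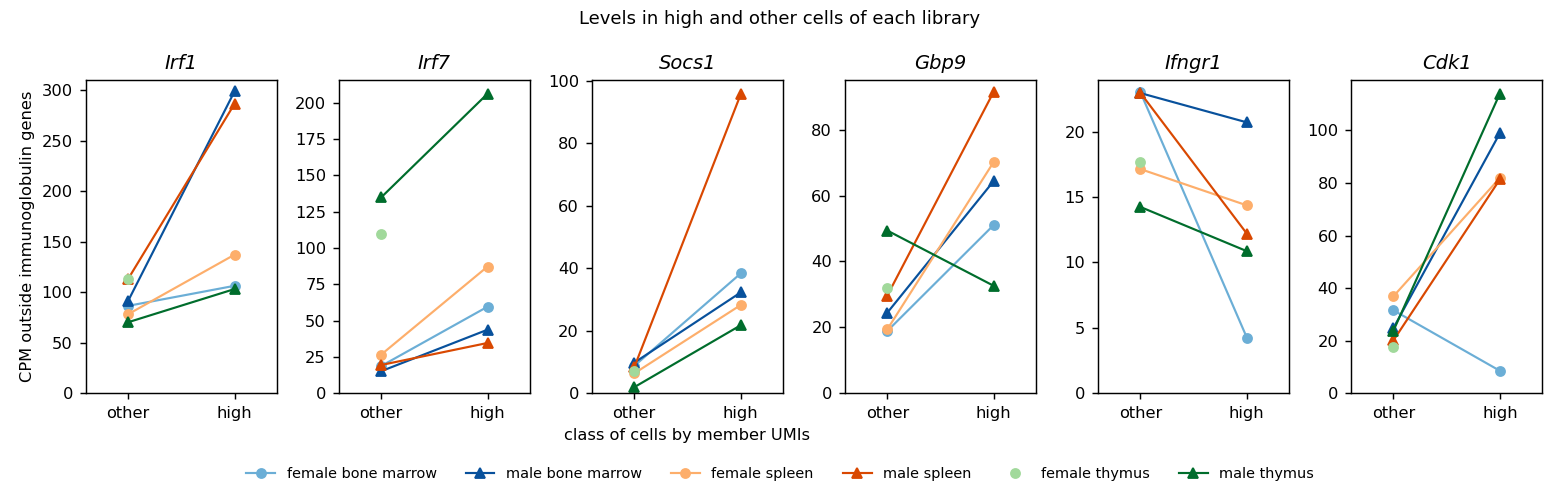
Level of 6 genes in the other and the high cells of each library, in CPM, each line joining the classes of 1 library; female thymus has no high cells. Irf1, Irf7 and Socs1 are higher in the high cells of all 5 libraries, Ifngr1 is lower in all 5, and Cdk1 is higher in 4 and lower in female bone marrow.

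Immunity GTPases outside the members followed in part. Of 8 tested, 3 were called higher by the rule of 5 UMIs, namely Gbp9, Tgtp2 and Gbp5, where 13.2% of all genes were. After thinning 3 were called as well, where 0.447% of all genes were called higher. These were Gbp9, Tgtp2 and Gm4070, the last named after its value was seen (0.85, adjusted p = 0.00248). By the rule of 5 UMIs the count was 7 of 12 without male thymus, 1 of 5 without female spleen, and 2 of 8 without male bone marrow or male spleen. The annotated span of Gbp9 overlaps that of Gbp4, and counting may have divided molecules between them. Since Gbp4 UMIs help to define high cells, the Gbp9 difference may in part restate that rule, which was not tested. Gbp9 stood at 51.1 against 18.9 CPM in female and 64.4 against 24.4 in male bone marrow. In spleen it stood at 70.2 against 19.3 and 91.5 against 29.6. In male thymus Gbp9 stood at 32.6 against 49.4, so the order was reversed. Its log2 difference was 1.60 (SE 0.18, adjusted p = 1.64e-06) and 2.06 after thinning. Tgtp2, an Irg effector GTPase, differed by 4.51 (SE 0.40, adjusted p = 4.85e-08), but 27 of its 36 UMIs in the high cells of male bone marrow came from 1 cell. It was found in 5 of 45 high cells there, in 1 of 30 of female bone marrow, in 22 of 193 and 6 of 76 of spleen and in 2 of 20 of male thymus. Gbp5 was called with 0.77 (SE 0.25, adjusted p = 0.0263) but not after thinning (0.431), nor without male bone marrow (0.0831), female spleen (0.146) or male spleen (0.0536). In the depth window it was not called either (adjusted p = 0.689), and by the rule with 1000 CPM it was (1.43, adjusted p = 0.00572). Serpina3g, the paralog next to Serpina3f, was called with 0.88 (SE 0.12, adjusted p = 1.98e-05) and with 0.79 after thinning (0.0165), but not with the 90% light-chain limit (0.60, adjusted p = 0.264).

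Of 20 tested interferon-gamma induced genes, 15 were called higher and 0 lower by the rule of 5 UMIs, with a median log2 difference of 0.60 against -0.04 over all genes. By that rule 13.2% of all genes were called higher and 8.77% lower. After thinning 6 of 18 were called and the median was 0.38, and with the 90% light-chain limit 2 of 13 were called and the median was 0.33. Among all genes 0.447% were called higher after thinning and 0.366% with the 90% limit. Parp14 and Parp9, ADP-ribosyltransferases of this list, were called under all 3 depth-matched rules, Parp14 with 0.999 by the first rule and 1.33 after thinning. With the 90% light-chain limit Parp14 was called (1.25, adjusted p = 0.0445) and Parp9 was not (1.05, adjusted p = 0.266). Cxcl10, a chemokine that draws T cells, differed by 2.82 (SE 0.34, adjusted p = 3.27e-06) and by 1.59 after thinning, where it was not called (adjusted p = 0.0719), and was called by the rule with 1000 CPM (3.30, adjusted p = 3.8e-07). Of its 37 UMIs in the high cells of male bone marrow, 28 came from 1 cell. Ube2l6, the conjugating enzyme of ISG15, differed by 1.60 (SE 0.26, adjusted p = 0.000103) and was not tested after thinning.

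The antiviral list had 14 of 15 tested genes called higher, with a median of 1.35, and 5 of 12 after thinning, with a median of 1.002. It had 6 of 12 called in the depth window, 12 of 14 by the rule with 1000 CPM, and 2 of 8 with the 90% light-chain limit, where the median was 0.69. Among all genes 13.2% were called higher by the rule of 5 UMIs and 0.447% after thinning. The share was 0.342% in the depth window, 0.892% by the rule with 1000 CPM and 0.366% with the 90% limit. Usp18 differed by 2.60 (SE 0.33, adjusted p = 7.04e-06), Oasl2 by 2.55, Isg15 by 2.504 and Dhx58, an RNA helicase, by 1.87. Usp18, Oasl2 and Dhx58 were not tested after thinning. Oasl2 was found in 2 of 30 and 1 of 45 high cells of female and male bone marrow. In spleen it was found in 12 of 193 and 1 of 76, and in male thymus in 5 of 20. Dhx58 was found in 2, 2, 25, 3 and 7 high cells in the same order. Isg15 stood at 174 against 40.8 CPM in female bone marrow, 488 against 38.3 in male bone marrow, 896 against 110 in female spleen and 1010 against 205 in male thymus, but at 24.4 against 67.3 in male spleen. Isg15 reached 131 UMIs in a single high cell of male bone marrow, 232 in female spleen and 102 in male thymus. It was found in 11 of 45, 84 of 193 and 12 of 20 high cells of these libraries. It was not called after thinning (1.03, adjusted p = 0.458), and was called in the depth window (2.65, adjusted p = 1.07e-22) and by the rule with 1000 CPM (2.61, adjusted p = 1.93e-07). Ifi206 (1.82) and Epsti1 (1.52), further interferon-induced genes, were among the 12 genes with the highest difference and were not tested after thinning. Without female spleen 9 of 11 genes of the antiviral list were called, and the count over all genes fell to 1194.

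Of 12 tested cell cycle genes, 11 were called higher by the rule of 5 UMIs, and at most 1 under each depth-matched rule. Among all genes 13.2% were called higher by the rule of 5 UMIs and 0.342% to 0.892% under the depth-matched rules. The largest differences were those of Stmn1 with 1.56, Cdk1 with 1.55, Rrm2 with 1.42 and Pclaf with 1.38. After thinning edgeR called 0 of 12 (3 at an unadjusted p under 0.05) with a median of -0.43, and with at least 1000 CPM 0 of 12 (3 unadjusted) with -0.47. With the 90% light-chain limit edgeR called 0 of 11 (7 unadjusted) and the median was 0.87. DESeq2 was not run on these classes. Among cells of 2000 to 6000 UMIs Rrm2 was called with 1.34 (adjusted p = 0.00125), the only 1 of 9 tested, and the median was 0.14. In female bone marrow the list stood at 328 CPM in high and 1054 in other cells, against 2179 and 850 in male spleen. Cdkn3 (1.74), Cks2 (1.49) and Cenpw (1.47), also of the cell cycle, were among the 12 highest differences, and after thinning Cks2 was at -0.05 and Cenpw at -0.51.

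The lowest differences in high cells were also followed across the rules. The 8 lowest by the rule of 5 UMIs were Gm43218 (-2.84), Ipcef1 (-2.30), Sp4 (-1.65), Nr1d2 (-1.45), Cdc14b (-1.44), Klf2 (-1.36), Arap1 (-1.33) and Rassf2 (-1.32). After thinning Gm43218 alone of these was called, with -3.14 and an adjusted p of 0.000111 in edgeR, while Sp4 and Nr1d2 were at 0.31 and 0.40, Rassf2 at -0.02, and the other 4 between -0.83 and -0.71. In the depth window, which had fewer high cells, the 7 others were not called but were all below 0, from -1.96 for Ipcef1 to -0.41 for Nr1d2. By the rule with 1000 CPM the 6 of them tested ran from -1.84 for Ipcef1 to -0.43 for Rassf2 and were not called. Gm43218, an unnamed transcript, had 0 UMIs in the high cells of both bone marrow libraries and of male thymus, and up to 370 UMIs in 1 other cell of female spleen. Of 14 tested genes of antibody-secreting cells edgeR called 4 higher and 2 lower by the first rule, and 0 after thinning (0 at an unadjusted p under 0.05). Over all genes the first rule called 13.2% higher and 8.77% lower.

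**Figure D5:**
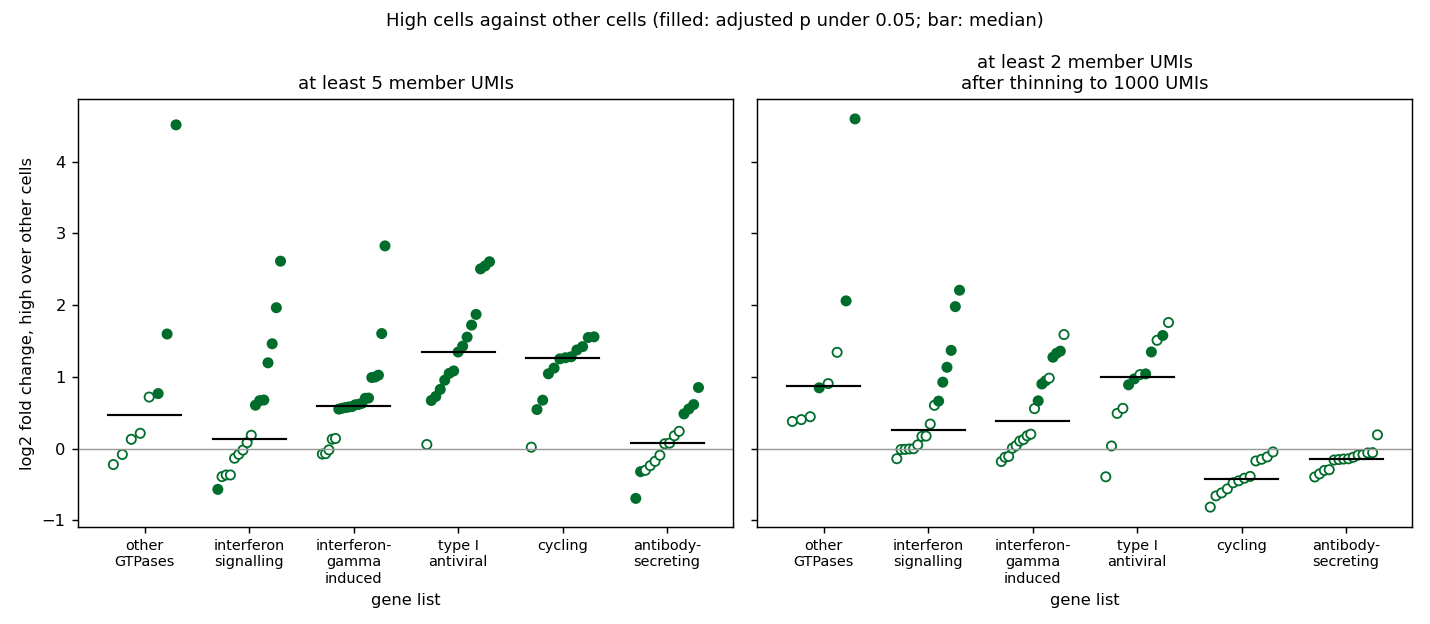
Log2 fold change of high over other cells for each tested gene by list, on the left with at least 5 member UMIs and on the right with classes drawn after thinning to 1000 UMIs; filled points passed the edgeR test and bars are medians. The cycling list moves from a median of 1.26 to -0.43.

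Markers of other cell types were compared in the same classes. Dendritic cell and pDC markers summed to more in high than in other cells in 5 of 5 libraries, with 426 against 319 CPM in female and 433 against 298 in male bone marrow, 628 against 392 and 313 against 257 in spleen and 901 against 405 in male thymus. Of the 2 tested genes of that list, Irf8 and Bst2, both also expressed outside these cells, both were called higher (0.68 and 0.83), and under each depth-matched rule Irf8 was called and Bst2 was not. B cell markers were also higher in 5 of 5 libraries, at 1671 to 2237 CPM against 1621 to 2031. Of 8 tested, 2 were called higher, H2-Aa and H2-Ab1, and 1 lower, Cd83. Over all genes 13.2% were called higher and 8.77% lower by the same rule. Under each depth-matched rule edgeR called 0 of 7 B cell markers (2 at an unadjusted p under 0.05 after thinning, 0 in the depth window and 1 by the rule with 1000 CPM). T cell markers summed to 6.10 to 29.8 CPM in high cells and 10.4 to 36.1 in the other cells of the 5 libraries, and macrophage and monocyte markers to 21.3 to 44.7 against 30.4 to 75.6. Neutrophil markers stood at 46.8 CPM in high against 569 in other cells of female bone marrow, at 43.7 against 1421 in male bone marrow, and at 0 in the high cells of the other 3 libraries. Cells with at least 2 UMIs of other cell types' markers, counted without B cell markers, Ccr9, Bst2 and Irf8, were 53.3% of high against 29.3% of other cells in female bone marrow and 44.4% against 37.3% in male bone marrow. In spleen they were 54.4% against 36.2% (female) and 36.8% against 27.3% (male), and in male thymus 40% against 14.0%. The share was higher in high cells, which were also deeper, in 5 of 5 libraries. Leaving these cells out left 12 to 88 high cells per library in place of 20 to 193, and 575 genes then were called between high and other cells, against 1871 with them. Without them 7 of 16 signalling genes, 9 of 11 antiviral genes, 11 of 17 interferon-gamma induced genes and 7 of 11 cell cycle genes were called higher. The median estimated free RNA share of a cell's UMIs was 2.47% to 16.5% in high cells and 5.75% to 20.6% in the other cells, lower in high cells in 5 of 5 libraries.

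Most cells of both classes were led by Ighm, the constant region of IgM. It led in 60% to 93.3% of high cells and 73.6% to 92.5% of other cells of the same 5 libraries, and in 63.9% of the cells of female thymus. Ighg2c, the constant region of an IgG subclass, led in 3.33% against 1.62% in female bone marrow, 2.22% against 1.39% in male bone marrow, 7.77% against 6.55% and 6.58% against 3.17% in spleen and 30% against 4.78% in male thymus. It was higher in high cells in 5 of 5 libraries, and Igha, of IgA, was lower in 5 of 5, with means of 2.63% against 6.09%. The Ighg2c shares of high cells rest on 1 cell in each bone marrow library, 15 and 5 in spleen and 6 in male thymus. Those of Igha rest on 0 to 5 cells per library. A two-sided exact permutation test over the 5 libraries gave p = 0.0625 for each, the smallest it allows, and 0.188 after adjustment over 6 isotypes, so neither passed. By the rule with 1000 CPM, Ighg2c was higher in 4 of 5 libraries (exact p = 0.188) and Igha lower in 5 of 5 (exact p = 0.0625).

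Over the 6 libraries, the genes most like the summed members by Pearson correlation of log2(CPM + 1), among 5997 genes with a mean of at least 20 CPM, were Tpst1, Ticam1, Got1, Tex261, Trpt1, CAAA01118383.1, Cdc25b and Ifrd1. Their r ran from 0.947 to 0.980, over 6 points that also differ in depth and number of cells. As the highest of 5997 values over so few points, they are a description without a test. Tpst1 stood at 117 and 130 CPM in bone marrow (female, then male), 150 and 151 for spleen and 152 and 172 for thymus, the order of the members' sum.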

How the data were processed

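UMI counts per gene and barcode were deposited by the authors as filtered and raw matrices, made with Cell Ranger, version 6.0.2 for the filtered ones per the file headers. The submitters' processing notes name the builds mm10 and GRCm38. The antigen receptor libraries of the study were not used here. Counts of kept barcodes were summed per library, with 282801 to 21365508 UMIs per sum, and the 395 genes starting Igh, Igk or Igl were left out of tests and library sizes. edgeR 4.0.16 (R 4.3.3) fitted the 6 sums with TMM scaling, filterByExpr, sex and tissue in 1 additive model, and Benjamini-Hochberg adjustment over all genes, with a threshold of 0.05. High and other cells were compared with library as a block, without the members in the counts, over libraries with at least 10 cells in each class. The test was run on simulated counts with large planted changes and a fixed spread. Small changes, changes in genes at low levels and single cells with many UMIs were not simulated. Error terms after log2 differences are the difference divided by the root of edgeR's F. Poisson and Clopper-Pearson intervals (95%) and the limit for a level with 0 UMIs, taken as 3 counts, cover counting error only. Doublets were not called.

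The members and the gene lists were chosen with earlier results of these data known. Named genes are the members, at most 4 called genes per list and contrast by absolute difference, Irf1, Ifngr1 and Ifngr2 in any case (1 further gene of the rule is not reported here), the 12 highest and 8 lowest called genes of the high cells with a mean of at least 10 CPM and 1 direction in every library, and the 8 genes most like the summed members. Alternatives were RLE scaling, DESeq2 1.42.0, no filter on low counts, other limits on cells, classes and depth, and leaving out each library. The classes with at least 1000 CPM or at least 12 UMIs, and the share in cells of 2000 to 6000 UMIs, were added after seeing the data.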

Additional observations from a re-analysis of the deposited data

Results flagged for a closer look

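Ifi47 and Serpina3f differed between tissues in opposite directions in the 2 sexes, each with 1 library per sex and tissue. For Ifi47 the log2 ratio of thymus over spleen was -1.51 in females (counting interval -3.39 to -0.15, 4 against 862 UMIs) and 0.92 in males (0.45 to 1.37, 53 against 181 UMIs). For Serpina3f the log2 ratio of spleen over bone marrow was -0.37 in females (-0.61 to -0.12) and 0.51 in males (0.29 to 0.74). These 2 ratios had counting intervals on opposite sides of 0. In spleen over bone marrow the sign also differed for Irgm1 (0.29 in females, -0.33 in males), Irgm2 (-0.13, 0.67) and Gbp4 (-0.07, 0.41). The female intervals of these 3 genes include 0. The difference between the sexes was not tested, since no sex and tissue has a second library.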

How the results depend on the processing

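No paired analysis was possible by replicate number because each sex and tissue has 1 library and the labels give no number that ties libraries together. The models already compare tissues within sex and classes within library. The cause of the changes listed here was not tested. The number of genes called in thymus versus bone marrow (81 in the reported analysis) was 127 without a filter on low counts, 27 with the top light-chain V gene at 90%, 235 without barcodes found in another library's list, 52 without cells with other cell types' markers, and 18 to 351 leaving out 1 library. In thymus versus spleen (63) the same alternatives gave 127, 16, 374, 41 and 32 to 933. In spleen versus bone marrow (44) no filter gave 100, the 90% limit 7, leaving out cells with other markers 17, DESeq2 7, and leaving out 1 library 12 to 168. In male versus female (44) these were 101, 19, 25, 9 and 10 to 210. Between high and other cells (1871) DESeq2 called 1207, the 90% limit 18, leaving out cells with other markers 575, at least 3 UMIs 3264, at least 8 UMIs 686, thinning 39, the depth window 30, the rule with 1000 CPM 73, and leaving out 1 library 1194 to 1803. Female thymus has no high cells, so leaving it out changes nothing there and was not run.

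Log2 differences changed sign for cell cycle and lowered genes of the high cells, each not called after the change. After thinning and by the rule with 1000 CPM they were -0.56 and -0.57 for Cdk1, -0.51 and -0.41 for Cenpw, -0.052 and -0.35 for Cks2, -0.45 and -0.56 for Pclaf, -0.48 and -0.17 for Rrm2, and -0.39 and -0.49 for Stmn1. After thinning Nr1d2 was at 0.40 and Sp4 at 0.31. Genes that were not called in the reported analysis also changed sign. In high cells Ifngr1 was at 0.0041 by the rule with 1000 CPM, and Ifngr2 at 0.0066 with RLE, 0.026 with DESeq2, 0.045 without barcodes in another list, 0.015 with at least 3 UMIs, 0.17 with at least 8, 0.097 in the depth window, and -0.071 to 0.064 leaving out 1 library. Between tissues, Ifngr2 in thymus versus bone marrow was at 0.14 with the 90% limit, 0.031 under 10% mitochondrial UMIs, 0.069 without cells with other markers and -0.17 to 0.21 leaving out 1 library. In thymus versus spleen it was at -0.13 without barcodes in another list and -0.10 to 0.27 leaving out 1 library, and in spleen versus bone marrow at 0.0066 without cells with other markers and -0.32 to 0.050. Irf1 was at -0.63 to 0.0080 in thymus versus bone marrow and -0.023 to 0.27 in spleen versus bone marrow, leaving out 1 library. In male versus female Serpina3f was at -0.093 with the 90% limit. Irf1 was at 0.0058 under 10% mitochondrial UMIs, 0.082 without cells with other markers and -0.16 to 0.14 leaving out 1 library, and Ifngr2 at -0.091 to 0.25.

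The share of high cells in bone marrow, female then male, was 7.32% and 9.95% with at least 3 UMIs, 0.83% and 1.02% with at least 8, 0.226% and 0.622% with at least 12, 4.37% and 3.73% with the 90% limit and 1.21% and 1.41% with 1000 CPM. In female bone marrow it was 3.23% after thinning and 1.51% without cells with other markers, and in male bone marrow 1.29% in the depth window. In spleen it was 13.96% and 9.29%, 2.81% and 1.88%, 1.31% and 0.914%, 6.59% and 5.63%, and 2.73% and 2.94% by the same rules. In female spleen it was 4.4% after thinning, 3.82% without cells with other markers and 3.02% in the depth window. In thymus it was 3.74% (female) after thinning, 5.26% and 13.8% with at least 3 UMIs, and in males 1.41% with at least 8, 0.563% with at least 12, 13.2% with the 90% limit and 3.38% with 1000 CPM. RLE scaling, cells with at least 1000 UMIs and under 10% mitochondrial UMIs left each count of calls within 1.5 times. Depth limits the members most in female thymus, with 77 member UMIs.

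Over 14 alternatives the Gbp6 difference stayed at 2.42 to 2.77 against bone marrow and 1.47 to 1.97 against spleen. Between high and other cells Irf1 was called in 18 of 18 alternatives (0.68 to 1.69). Socs1 was called in 17 of 17 (1.5 to 3.68) and was not tested with the 90% light-chain limit.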
